A study of Mus musculus with 8 samples.

Results

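The genes described here are 38 glycolysis and hypoxia-inducible genes of the mouse. Of these, 21 serve glucose uptake, glycolysis and its control, and 17 are other genes known to be induced by low oxygen. They were taken by their symbols from a count table of 24505 genes, in which all 38 were present. The table covers 8 RNA-seq libraries of Scid.adh.2c2, a mouse cell line with the character of pro-T cells, in 4 groups of 2. The cells of a group received 1 of 4 retroviruses, each with GFP in its label: a mock virus, a virus with Runx1 WT, one with Runx1 DN, or one with Satb1. Runx1 and Satb1 are nuclear DNA-binding proteins of developing T cells. The abbreviation DN is not expanded in the labels, and for Runx proteins it commonly means dominant negative. Infected cells were sorted 2 days after infection, and 300000 cells gave the RNA of a library. All 4 groups share 1 cell line, and the labels give no genotype, added agent or oxygen level. They also do not say whether the replicates of a group were separate infections, so p-values measure the spread between these libraries, which may be technical.

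Glycolysis carries glucose from the medium to pyruvate. Glucose transporters bring it in, hexokinases trap it as glucose 6-phosphate, phosphofructokinase commits it to the pathway, and aldolase splits the sugar into trioses that the lower enzymes convert to pyruvate. Lactate dehydrogenase turns pyruvate into lactate, while pyruvate dehydrogenase kinase holds pyruvate back from the mitochondria. Many of these genes are bound by the hypoxia-inducible factor HIF-1, a pair of the oxygen-regulated subunit HIF-1 alpha and its partner ARNT. In the presence of oxygen, prolyl hydroxylases of the Egln family mark HIF-1 alpha, the VHL protein binds it and it is degraded. Because this control acts on the protein, the mRNA of Hif1a does not report HIF activity. Developing T cells also change glycolysis with growth signals and with Myc, so that the same enzymes answer to several regulators.

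Library totals ranged from 23624498 to 33093330 counts. Levels are given as CPM (counts per 1000000 counts) on the TMM scale, a scaling that sets the bulk of genes equal between libraries. The transduced Runx1 had 138 and 129 CPM in mock, 7647 and 8307 CPM in Runx1 WT, 21201 and 24239 CPM in Runx1 DN, and 181 and 184 CPM in Satb1. Satb1 was higher than mock in its own group by 3.31 ± 0.08 (log2 fold change, SE). All 12 pro-T markers reached 1 CPM in every library. Their summed level was 4833 to 4886 CPM in mock, 5847 to 5895 CPM in Runx1 WT, 2846 to 3007 CPM in Runx1 DN and 6582 to 6723 CPM in Satb1. The 5 B cell markers summed to 0.223 to 1.03 CPM. The 7 myeloid markers summed to 7.26 to 9.73 CPM in mock and 12.4 to 19.7 CPM in Satb1. They summed to 17.1 to 19.4 CPM in Runx1 DN and 68.6 to 73.0 CPM in Runx1 WT. Of the 3 tested, 2 were higher than mock with Runx1 WT, 3 with Runx1 DN and 1 with Satb1, by the edgeR test given below. Elane and Cebpa were at 0 in both libraries of mock and of Runx1 WT. In bulk RNA, fewer cells of a type and less RNA per cell cannot be told apart.

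Regulatory sequence was read for 34 of the 38 genes, which have 51 promoters in RefSeq's mouse assembly GRCm38.p6. The core of a HIF-1 site, ACGTG or GCGTG on either strand, occurred in 40 of the 51 (78.4%) within the 250 bases before the start, against 38.6% of all 32851 promoters of that length. The share was not adjusted for base composition, and promoters of 1 gene can overlap. The Runx sites TGTGGT or TGCGGT occurred in 6 of the 51 (11.8%), against 18.6% of all promoters. A match says only that the letters are there. The 6 sequences below were chosen because they show the genes the results turn on, with capitals for the HIF-1 core on either strand. Where CACGTG occurs, both strands hold the core and it counts 2 times. Where a gene has 2 RefSeq starts, the one with more matches is shown. Ldha (chr7:46845554-46845803, plus strand) has 5 matches, and 1 at its other start, and Pgk1 (chrX:106186850-106187099, plus strand) has 2. Bnip3 (chr7:138909507-138909756, minus strand) has 5 and Ankrd37 (chr8:45999851-46000100, minus strand) has 4. Hk1 (chr10:62340422-62340671, minus strand), which moved against most glycolysis genes with Runx1 WT, has 3, and 0 at its other start. Tpi1 (chr6:124814159-124814408, minus strand), which moved with them, has 0 in this window.
Ldha: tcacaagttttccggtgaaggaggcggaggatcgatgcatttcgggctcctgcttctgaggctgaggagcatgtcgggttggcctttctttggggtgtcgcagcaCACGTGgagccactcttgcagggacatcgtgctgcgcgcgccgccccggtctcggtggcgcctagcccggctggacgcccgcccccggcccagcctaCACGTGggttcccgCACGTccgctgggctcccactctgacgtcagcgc
Pgk1: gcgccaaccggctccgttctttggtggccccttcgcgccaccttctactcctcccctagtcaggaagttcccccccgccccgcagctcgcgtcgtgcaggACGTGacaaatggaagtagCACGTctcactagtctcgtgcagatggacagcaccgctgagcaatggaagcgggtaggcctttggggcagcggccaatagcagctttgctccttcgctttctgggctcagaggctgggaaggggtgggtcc
Bnip3: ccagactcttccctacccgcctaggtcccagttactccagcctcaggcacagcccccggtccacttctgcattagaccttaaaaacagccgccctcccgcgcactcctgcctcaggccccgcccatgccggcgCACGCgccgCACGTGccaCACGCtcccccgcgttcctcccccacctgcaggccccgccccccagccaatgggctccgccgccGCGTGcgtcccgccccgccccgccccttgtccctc
Ankrd37: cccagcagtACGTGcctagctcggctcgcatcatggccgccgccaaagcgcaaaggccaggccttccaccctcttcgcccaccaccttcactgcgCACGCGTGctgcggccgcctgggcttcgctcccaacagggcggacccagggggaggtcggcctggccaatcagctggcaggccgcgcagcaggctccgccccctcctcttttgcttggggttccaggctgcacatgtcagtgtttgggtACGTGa
Hk1: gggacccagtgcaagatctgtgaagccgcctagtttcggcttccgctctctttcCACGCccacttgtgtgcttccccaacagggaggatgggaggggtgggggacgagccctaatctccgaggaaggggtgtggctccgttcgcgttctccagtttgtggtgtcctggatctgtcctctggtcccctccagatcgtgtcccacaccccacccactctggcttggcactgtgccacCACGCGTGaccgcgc
Tpi1: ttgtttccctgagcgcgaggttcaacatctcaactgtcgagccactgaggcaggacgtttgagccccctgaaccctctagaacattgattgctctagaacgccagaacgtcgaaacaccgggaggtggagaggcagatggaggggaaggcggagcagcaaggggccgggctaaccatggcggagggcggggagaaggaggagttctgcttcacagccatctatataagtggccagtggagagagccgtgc

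In mock, the members spanned a wide range of levels per length of transcript. Eno1 (enolase) stood first with a mean of 2093 RPKM over the 2 libraries, followed by Ldha (lactate dehydrogenase A, 1533 RPKM), Aldoa (aldolase A, 1176 RPKM) and Pgk1 (phosphoglycerate kinase, 1111 RPKM). Aldoa and Pgk1 are neighbours in this order whose difference was far smaller than that between the libraries of either gene. Tpi1 (triosephosphate isomerase, 581 RPKM), Pgam1 (phosphoglycerate mutase, 571 RPKM), Gapdh (476 RPKM) and Gpi1 (glucose 6-phosphate isomerase, 367 RPKM) came next. Among the hypoxia genes Ndrg1, a differentiation and stress gene, had the highest mean, at 268 RPKM, but its libraries had 57.7 and 479 RPKM. In mock replicate 1 Ddit4 was above it, with 103 RPKM, and 281 RPKM in replicate 2. Hif1a itself stood at 35.8 RPKM. Eno2, the neuronal enolase, had at most 0.128 CPM in any library and was the 1 member not tested, which left 37 of 38. Slc16a3, the lactate exporter MCT4, lay between 0.349 and 0.624 CPM.

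The libraries of a group did not always resemble each other in these genes. In mock, replicate 2 was above replicate 1 in 35 of 37 members, against 6589 of 12699 genes tested. It was at least 1.5-fold above in 26 members, which was true of 5.43% of all genes tested. In Satb1, 35 members were higher in replicate 2, against 6574 of 12699 genes tested, and 29 were at least 1.5-fold higher, against 4.81% of all genes. The same count was 1 in Runx1 WT (background 3.93%) and 2 in Runx1 DN (background 4.42%). No member was 1.5-fold lower in replicate 2 of any group, against 2.82% of all genes in mock, 3.11% in Satb1, 2.65% in Runx1 WT and 2.83% in Runx1 DN. The median difference over the members was 0.79 in mock, 0.93 in Satb1, 0.00 in Runx1 WT and 0.02 in Runx1 DN (log2 CPM, replicate 2 minus replicate 1), while over all genes tested it was 0.01 in mock and 0.00 in Satb1.

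**Figure D1:**
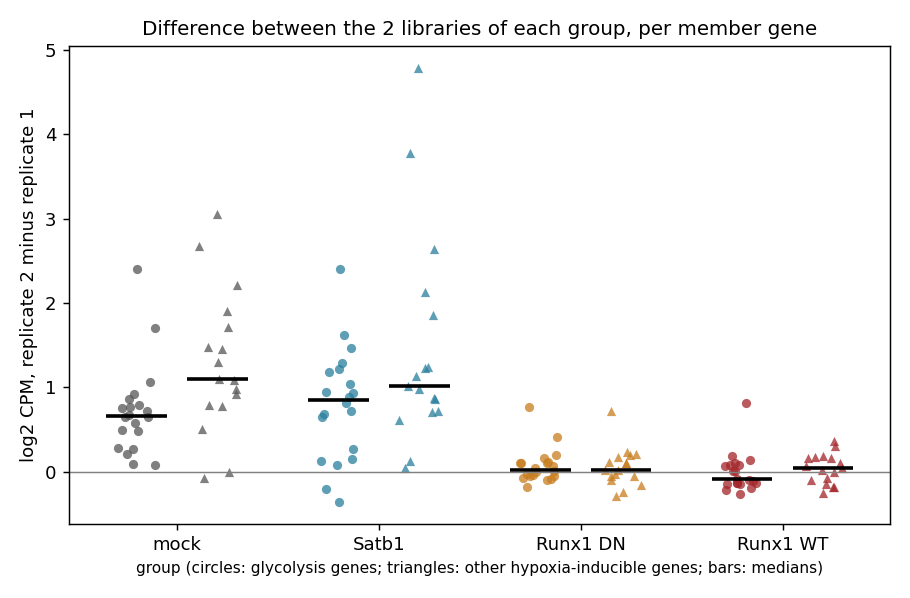
Each point is 1 member gene, plotted as log2 CPM in replicate 2 minus replicate 1 (vertical axis) for the 4 groups (horizontal axis), with bars at the medians of glycolysis genes (circles) and other hypoxia-inducible genes (triangles). The mock and Satb1 points lie mostly above 0, and the points of both Runx1 groups lie around 0.

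The difference between replicates was widest among the hypoxia genes. Ndrg1 differed by 3.05 in mock and 4.79 in Satb1 (log2), and Ankrd37, which encodes an ankyrin repeat protein, by 2.21 and 3.78. Adm, the gene of the vasodilator peptide adrenomedullin, differed by 2.68 and 1.14 at a low level. Slc2a1, the transporter GLUT1, was the widest of the glycolysis genes at 2.4 in both groups. Hif1a did not follow them, with differences of -0.01 and 0.04, and neither did the transporter Slc2a3 (0.08 in both groups) or the collagen prolyl hydroxylase P4ha2 (-0.08 and 0.13). Of the 4 mock and Satb1 libraries, Satb1 replicate 1 was the lowest in 30 of 37 members and mock replicate 2 the highest in 30. This order was not counted over all genes. The source of the difference between replicates was not tested.

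**Figure D2:**
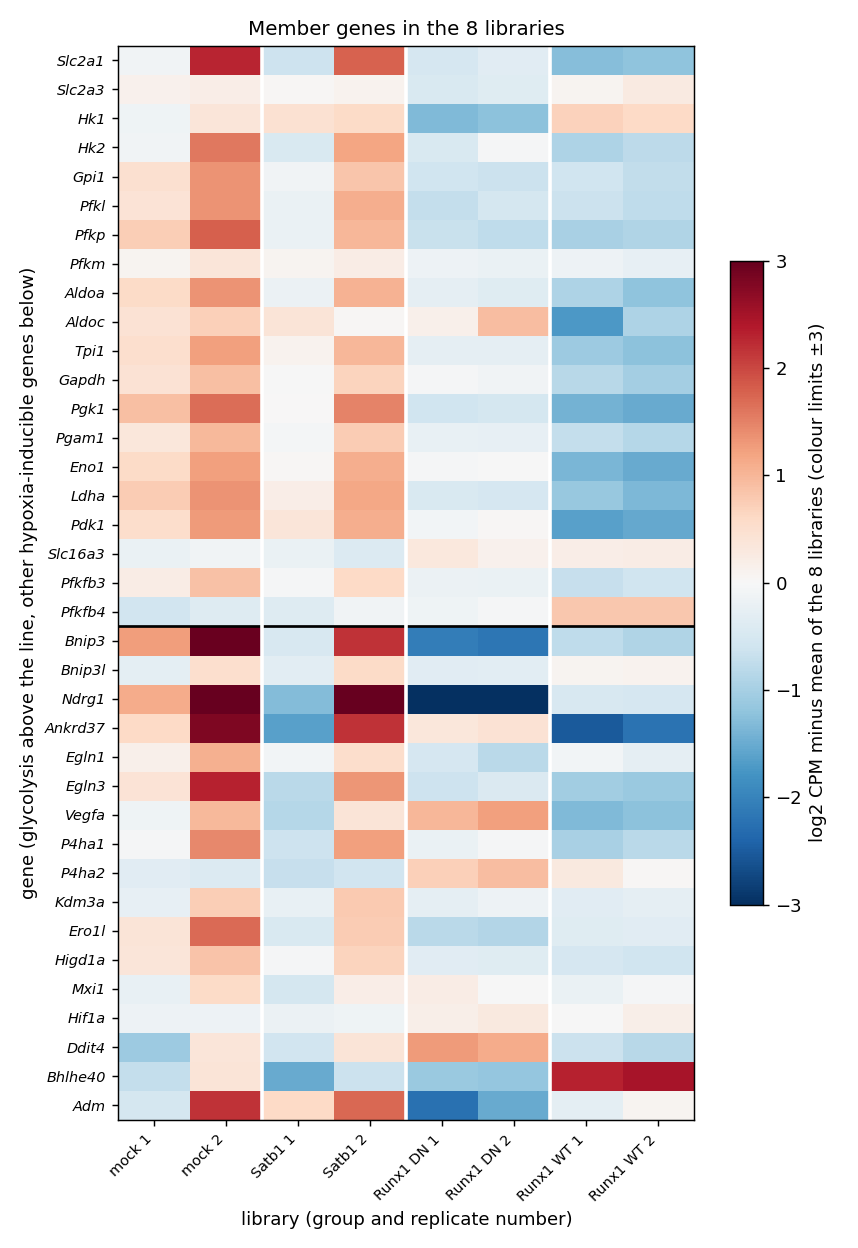
The 37 tested members (rows) in the 8 libraries (columns), coloured by log2 CPM minus the gene's mean over the 8 libraries, with colours capped at 3 on either side. Mock replicate 2 and Satb1 replicate 2 are the highest columns for most genes, and the Runx1 WT columns are the lowest for most of the glycolysis genes above the line.

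The first comparison asked how added Runx1 WT changed these genes against mock. In it, 25 of the 37 members tested were lower (67.6%) and 4 were higher (10.8%), by edgeR's quasi-likelihood test with Benjamini-Hochberg adjustment over all genes tested and a threshold of 0.05. Of all 12699 genes tested, 31.8% were lower and 38.9% higher, so lower calls were more frequent among the members than in the background and higher calls less frequent. At least 2-fold lower were 23 members, against 9.82% of all genes. The median log2 fold change was -1.74 over 20 glycolysis genes and -1.19 over 17 hypoxia genes, beside 0.10 over all genes. Among the glycolysis genes 16 fell, 2 rose and 2 passed in neither direction, and among the hypoxia genes 9 fell, 2 rose and 6 passed in neither direction. In the same libraries Myc, a regulator of growth and of glycolytic genes, fell by 2.28 ± 0.09 on the log2 scale, and the myeloid markers had the level given above. The part of either in these results was not tested. Lower calls were 15 of 37 (40.5%) with robust empirical Bayes, which lets variable genes keep a larger variance, against 31.6% of all genes. These 15 were 13 glycolysis genes, Vegfa and Higd1a, and they passed in each of the 18 alternatives in which they were tested. Aldoc, near the limit of detection, was not tested with the filter at a minimum count of 50. Without mock replicate 2 the lower calls were 19 (51.4% against 27.6%), and without replicate 2 of both mock and Satb1 they were 24 (64.9% against 27.0%). The fold changes against mock were nearly the same in those last fits, which differ in whether Satb1 replicate 2 enters the shared estimate of spread. Both hold 1 mock library, so neither measures the spread within mock. In the second, the spread comes from the 2 Runx1 groups alone, whose libraries agreed closely in these genes. Here and below, a gene that passes in that fit is therefore not shown to stand out from the spread of mock. Below, p is the adjusted p of this edgeR test, the fold change is log2 with its SE, and n is 2 libraries per group.

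Glucose uptake and the hexokinases split by isoform. Slc2a1 had 42.9 and 227 CPM in mock, 29.9 and 159 CPM in Satb1, 19.0 and 19.9 CPM in Runx1 WT, and 32.8 and 36.6 CPM in Runx1 DN. The Runx1 WT libraries were below every other library, at a log2 fold change of -2.80 ± 0.80 (edgeR adjusted p = 0.0098). Hk2, the inducible hexokinase, had 88.8 and 289 CPM in mock, 70.5 and 217 CPM in Satb1, 50.9 and 55.8 CPM in Runx1 WT, and 70.2 and 93.4 CPM in Runx1 DN. It too was lowest in Runx1 WT (-1.83 ± 0.55, edgeR adjusted p = 0.013). The ubiquitous Hk1 went the other way, with 74.3 and 105 CPM in mock, 111 and 121 CPM in Satb1, 132 and 122 CPM in Runx1 WT, and 32.5 and 34.8 CPM in Runx1 DN. Its Runx1 WT libraries were above both mock libraries and it rose by 0.51 ± 0.13 (edgeR adjusted p = 0.0065). Slc2a3, the transporter GLUT3, had 74.6 and 78.9 CPM in mock and 73.1 and 83.1 CPM in Runx1 WT, groups that overlapped, with a log2 fold change of 0.03 (95% interval -0.16 to 0.21). Without mock replicate 2, Slc2a1 stood at -1.15 (edgeR adjusted p = 0.16) and Hk2 at -0.74 (edgeR adjusted p = 0.19), so both calls ended. Without replicate 2 of both mock and Satb1 the folds were the same and both passed, with the spread of the Runx1 groups alone. The calls also ended without either Runx1 WT library, where the edgeR adjusted p was 0.0594 and 0.0565 for Slc2a1 and 0.0708 and 0.0581 for Hk2.

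The upper steps, from glucose 6-phosphate to the trioses, were lower throughout. Gpi1 had 748 and 1354 CPM in mock, 497 and 948 CPM in Satb1, 355 and 321 CPM in Runx1 WT, and 356 and 343 CPM in Runx1 DN. All 4 Runx1 libraries were below all 4 others, and Gpi1 fell by 1.64 ± 0.30 with Runx1 WT (edgeR adjusted p = 0.00067). Pfkp, the platelet phosphofructokinase, had 148 and 310 CPM in mock, 77.9 and 177 CPM in Satb1, 45.2 and 47.7 CPM in Runx1 WT, and 56.2 and 52.5 CPM in Runx1 DN. It fell by 2.30 ± 0.38 (edgeR adjusted p = 0.00034), or by 1.68 without mock replicate 2, and its span overlaps Pitrm1. The liver form Pfkl stood at -1.65 and the muscle form Pfkm at -0.42, the smallest change of the 3 (edgeR adjusted p = 0.0025 and 0.0029). Aldoa went from 1360 and 2346 CPM in mock to 480 and 398 CPM (-2.08 ± 0.35, edgeR adjusted p = 0.00038). The brain aldolase Aldoc was near the limit of detection, with 15 and 22 counts in mock and 2 and 5 in Runx1 WT (-2.31 ± 0.56, edgeR adjusted p = 0.0039).

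The lower enzymes, which make ATP and pyruvate, fell as well. Pgk1 had 1487 and 2539 CPM in mock, 808 and 2226 CPM in Satb1, 297 and 279 CPM in Runx1 WT, and 527 and 553 CPM in Runx1 DN. The Runx1 WT libraries were the lowest, the Runx1 DN libraries came next and neither overlapped any other group, with a log2 fold change of -2.81 ± 0.40 for Runx1 WT (edgeR adjusted p = 0.00012). Eno1 had 2848 and 4526 CPM in mock, 1979 and 4078 CPM in Satb1, 747 and 680 CPM in Runx1 WT, and 1870 and 1926 CPM in Runx1 DN. With Runx1 WT it fell by 2.37 ± 0.30 (edgeR adjusted p = 5.5e-05). Tpi1 had 698 and 1151 CPM in mock, 533 and 982 CPM in Satb1, 231 and 211 CPM in Runx1 WT, and 408 and 409 CPM in Runx1 DN. Gapdh, often used as a reference gene, had 562 and 784 CPM in mock, 416 and 666 CPM in Satb1, 233 and 205 CPM in Runx1 WT, and 411 and 390 CPM in Runx1 DN. In both genes the Runx1 WT libraries were below every other library, and the log2 fold changes were -2.07 ± 0.28 for Tpi1 and -1.62 ± 0.21 for Gapdh (edgeR adjusted p = 7.4e-05 and 5.5e-05). Pgam1 stood at -1.47 (edgeR adjusted p = 0.00039). Eno1, Gapdh, Ldha, Pgk1, Pgam1, Tpi1 and Aldoa are known to have near-identical copies in the mouse genome, and their counts are uncertain to the extent that the authors' counting split reads. The span of Tpi1 also overlaps that of Spsb2, and counts did not use strand.

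At the fate of pyruvate, both genes that turn it away from the mitochondria fell. Ldha (mm9 chromosome 7, 54101174 to 54110997, plus strand) had 1985 and 2962 CPM in mock, 1343 and 2592 CPM in Satb1, 534 and 460 CPM in Runx1 WT, and 846 and 821 CPM in Runx1 DN. It fell by 2.32 ± 0.28 with Runx1 WT (edgeR adjusted p = 3.3e-05). Pdk1, the pyruvate dehydrogenase kinase (mm9 chromosome 2, 71711281 to 71741915, plus strand), had 132 and 223 CPM in mock, 118 and 195 CPM in Satb1, 29.7 and 31.5 CPM in Runx1 WT, and 86.8 and 93.7 CPM in Runx1 DN. The Runx1 WT libraries lay far below all 6 others, and Pdk1 had the smallest adjusted p of the members (-2.54 ± 0.26, edgeR adjusted p = 1.2e-05). Without mock replicate 2 they stood at -2.0 and -2.11. Slc16a3 was low in every library and was not called.

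The enzymes that make and remove the sugar bisphosphate activating phosphofructokinase moved apart. Pfkfb3 had 76.2 and 120 CPM in mock, 63.5 and 99.4 CPM in Satb1, 40.2 and 43.3 CPM in Runx1 WT, and 57.4 and 57.1 CPM in Runx1 DN. It was lowest in Runx1 WT (-1.23 ± 0.22, edgeR adjusted p = 0.00062). Pfkfb4 was far less abundant, with 1.63 and 1.88 CPM in mock, 1.89 and 2.29 CPM in Satb1, 4.39 in both Runx1 WT libraries, and 2.25 and 2.41 CPM in Runx1 DN. It rose by 1.32 ± 0.20 (edgeR adjusted p = 0.00019), and the Runx1 WT libraries were above all others.

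The other hypoxia-inducible genes were more mixed with Runx1 WT. Ankrd37 had 13.2 and 61.5 CPM in mock, 2.78 and 39.2 CPM in Satb1, 1.46 and 1.82 CPM in Runx1 WT, and 11 and 11.9 CPM in Runx1 DN. The Runx1 WT libraries were below all others (-4.51 ± 1.14, edgeR adjusted p = 0.005), and without mock replicate 2 the value was -3.01 (edgeR adjusted p = 0.0351). Its span overlaps Ufsp2. Egln3, a HIF prolyl hydroxylase that HIF itself induces, had 120 and 450 CPM in mock, 51.4 and 225 CPM in Satb1, 43.7 and 41.4 CPM in Runx1 WT, and 58.6 and 67.3 CPM in Runx1 DN. It was lowest in Runx1 WT (-2.75 ± 0.67, edgeR adjusted p = 0.0042), and stood at -1.5 without mock replicate 2 (edgeR adjusted p = 0.0403). With robust empirical Bayes neither Ankrd37 nor Egln3 passed (edgeR adjusted p = 0.0777 and 0.0719). Vegfa, the endothelial growth factor, had 69.9 and 150 CPM in mock, 42.1 and 99.4 CPM in Satb1, 30.4 and 32.5 CPM in Runx1 WT, and 152 and 179 CPM in Runx1 DN. Runx1 WT and Runx1 DN lay at opposite ends of the 8 libraries, and Vegfa fell by 1.81 ± 0.39 with Runx1 WT (edgeR adjusted p = 0.0021), or by 1.16 without mock replicate 2.

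Bnip3 and Ndrg1 were lower with Runx1 WT, and their lowest levels were those of Runx1 DN. Bnip3, a mitochondrial protein of mitophagy (mm9 chromosome 7, 146082519 to 146101189, minus strand), had 44.5 and 146 CPM in mock, 13.4 and 84.1 CPM in Satb1, 11 and 9.93 CPM in Runx1 WT, and 4.37 and 4.07 CPM in Runx1 DN. Ndrg1 (mm9 chromosome 15, 66760880 to 66801203, minus strand) had 166 and 1375 CPM in mock, 30.8 and 857 CPM in Satb1, 54.4 and 54.0 CPM in Runx1 WT, and 7.94 and 8.06 CPM in Runx1 DN. Bnip3 was lowest in Runx1 DN and next lowest in Runx1 WT, whereas Satb1 replicate 1 had less Ndrg1 than Runx1 WT. With Runx1 WT the log2 fold changes were -3.19 ± 0.76 for Bnip3 and -3.83 ± 1.26 for Ndrg1 (edgeR adjusted p = 0.0034 and 0.019). Without mock replicate 2 they were -2.09 (edgeR adjusted p = 0.025) and -1.61 (edgeR adjusted p = 0.23), and the call of Ndrg1 also ended without either Runx1 WT library (edgeR adjusted p = 0.0948 and 0.0967). Without replicate 2 of both mock and Satb1, both passed at the same folds, with the spread of the Runx1 groups alone. With robust empirical Bayes neither passed (edgeR adjusted p = 0.0659 for Bnip3).

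Ero1l, an oxidase of protein folding that is also named Ero1a, had 124 and 306 CPM in mock, 68.4 and 161 CPM in Satb1, 74.1 and 75 CPM in Runx1 WT, and 53.6 and 51.8 CPM in Runx1 DN. It was lower with Runx1 WT than in both mock libraries (-1.53, edgeR adjusted p = 0.0073), and the call ended without mock replicate 2 (-0.73, edgeR adjusted p = 0.086). The collagen hydroxylase P4ha1 (-1.77) and the HIF prolyl hydroxylase Egln1 (-0.85) fell as well (edgeR adjusted p = 0.015 and 0.017), and neither passed without mock replicate 2 (edgeR adjusted p = 0.17 and 0.22). Without replicate 2 of both mock and Satb1, with the spread of the Runx1 groups alone, Ero1l and P4ha1 passed and Egln1 did not. The call of P4ha1 also ended without Runx1 WT replicate 1 or 2 (edgeR adjusted p = 0.0791 and 0.0621), and that of Egln1 without Runx1 WT replicate 2 (edgeR adjusted p = 0.0943). Higd1a, a mitochondrial inner membrane protein, fell by 1.19 ± 0.21 (edgeR adjusted p = 0.00056). The demethylase gene Kdm3a, the Myc antagonist Mxi1, the mitophagy receptor Bnip3l, P4ha2, Adm and Ddit4 passed in neither direction. Ddit4, an inhibitor of mTORC1, had 172 and 471 CPM in mock, 245 and 483 CPM in Satb1, 234 and 206 CPM in Runx1 WT, and 885 and 791 CPM in Runx1 DN. Its Runx1 WT libraries lay between the mock libraries.

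The 2 hypoxia genes that rose with Runx1 WT were Bhlhe40 and Hif1a. Bhlhe40, a basic helix-loop-helix repressor also known as Dec1 or Stra13, had 52.4 and 111 CPM in mock, 30.0 and 54.6 CPM in Satb1, 424 and 478 CPM in Runx1 WT, and 39.6 and 38.3 CPM in Runx1 DN. Runx1 WT stood far above all other libraries (2.46 ± 0.32, edgeR adjusted p = 6.8e-05), with 3.10 without mock replicate 2. The span of Bhlhe40 overlaps 0610040F04Rik. Hif1a had 170 CPM in both mock libraries, 167 and 172 CPM in Satb1, 188 and 214 CPM in Runx1 WT, and 213 and 231 CPM in Runx1 DN. Both Runx1 groups were above mock and Satb1, by 0.24 ± 0.08 for Runx1 WT (edgeR adjusted p = 0.016). That call ended in 6 of 18 alternatives, among them leaving out mock replicate 1 (edgeR adjusted p = 0.0695), mock replicate 2 or Runx1 WT replicate 2 (edgeR adjusted p = 0.116).

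**Figure D3:**
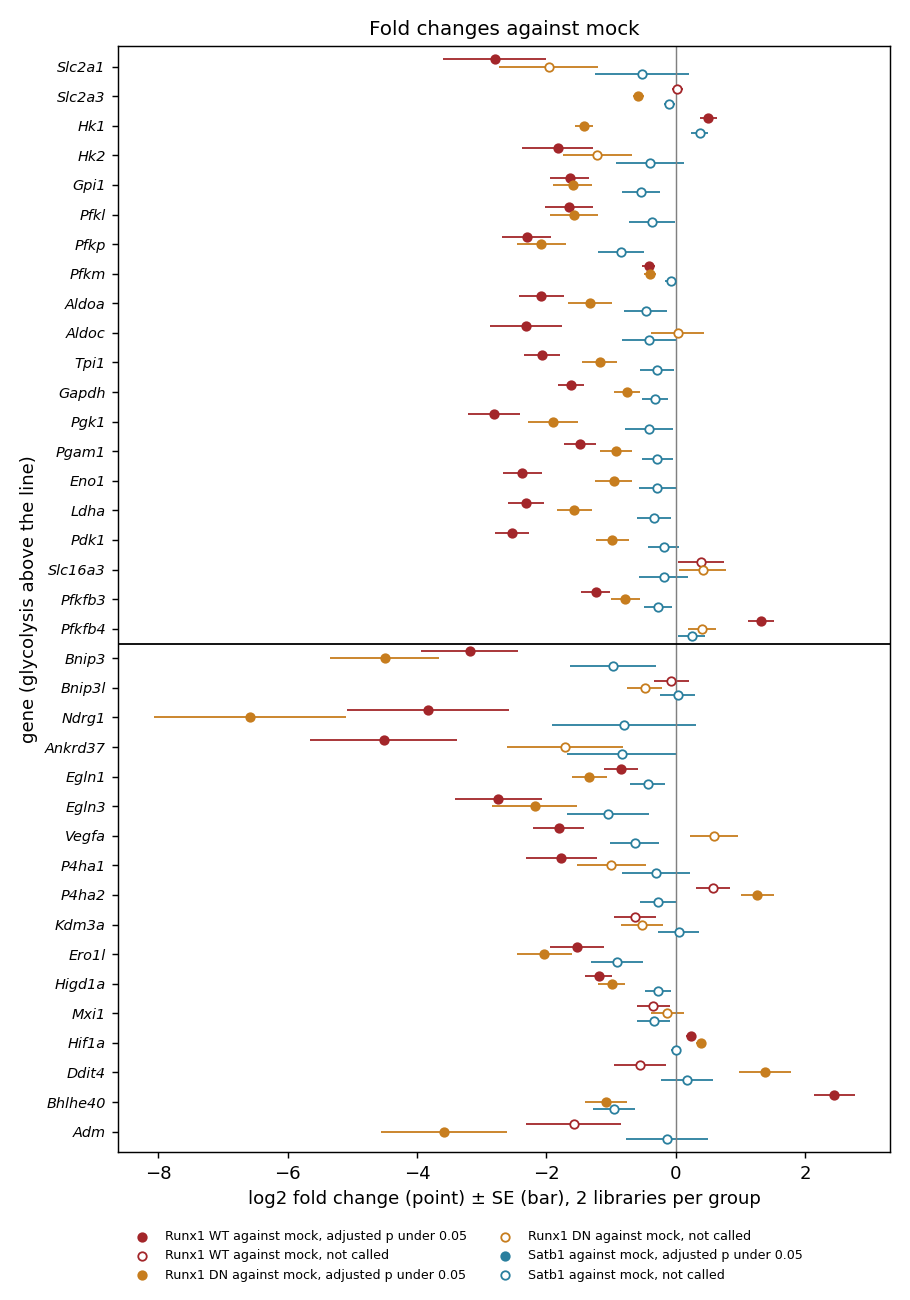
Log2 fold change against mock (horizontal axis) with its SE for each tested member (vertical axis), with filled points for adjusted p under 0.05 in edgeR's quasi-likelihood test and open points otherwise. Runx1 WT (red) and Runx1 DN (orange) lie to the left of 0 for most glycolysis genes, Bhlhe40 lies at 2.46 with Runx1 WT and -1.07 with Runx1 DN, and no Satb1 point (blue) is filled.

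The second comparison set Runx1 DN against the same mock libraries, so its fold changes are not independent of those above. Here 23 of 37 members were lower (62.2%) and 3 higher (8.11%), by the same edgeR test, against 16.9% and 17.5% of all genes tested. At least 2-fold lower were 15 members, against 3.91% of all genes. The glycolysis genes had 15 lower, 0 higher and 5 not called, and the hypoxia genes 8 lower, 3 higher and 6 not called. The median log2 fold change was -1.08 over the glycolysis genes and -0.99 over the hypoxia genes, beside 0.00 over all genes. The pro-T markers were lower in sum in Runx1 DN than in mock and the myeloid markers higher, as given above. Myc fell by 0.48 ± 0.09 on the log2 scale (edgeR adjusted p = 0.0021). The part of any of these was not tested. The count depends on single libraries. It was 11 without mock replicate 2 (29.7% against 10.7% of all genes), 21 without replicate 2 of both mock and Satb1 (56.8% against 9.31%), and 12 without either Runx1 DN library (32.4% against 10.03% and 11.98%). With robust empirical Bayes it was 6 (16.2%), no more than the 16.9% of all genes, so the excess over the background was not there. Those 6 were Slc2a3, Hk1, Gpi1, Ldha, Pfkm and Higd1a.

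In the glycolysis class, the calls that held in all 18 alternatives were those of Slc2a3, Hk1, Gpi1 and Ldha. Slc2a3 had 69.7 and 73.7 CPM in Satb1 and 49.7 and 53.3 CPM in Runx1 DN, below all 6 other libraries, and fell by 0.58 ± 0.08 (edgeR adjusted p = 0.00056). Hk1 fell by 1.41 ± 0.14 (edgeR adjusted p = 4.3e-05), in contrast to its rise with Runx1 WT. The value was -1.59 ± 0.30 for Gpi1 and -1.57 ± 0.27 for Ldha (edgeR adjusted p = 0.0025 and 0.0015). Pgk1 stood at -1.90 ± 0.39 and Pfkp at -2.08 ± 0.38 (edgeR adjusted p = 0.0039 and 0.0021). Aldoa, Tpi1, Eno1, Pdk1, Pgam1, Gapdh and Pfkfb3 had log2 fold changes from -1.33 to -0.75, and none of these 7 passed without mock replicate 2 (edgeR adjusted p = 0.053 to 0.19). Without replicate 2 of both mock and Satb1, all 7 passed at nearly the same folds, with the spread of the Runx1 groups alone. All but Tpi1 of these 7 also lost the call without either Runx1 DN library. Pfkl (-1.57) and Pfkm (-0.40) passed with all libraries, but not without mock replicate 2 (edgeR adjusted p = 0.0627 and 0.0947). Without replicate 2 of both mock and Satb1, with the same limit, Pfkl passed and Pfkm did not. Neither did Pfkl without Runx1 DN replicate 1 or Pfkm without Runx1 DN replicate 2 (edgeR adjusted p = 0.066 and 0.0588). Slc2a1 (-1.96) and Hk2 (-1.21) did not pass (edgeR adjusted p = 0.073 and 0.11). Aldoc stood at 0.03 with a wide 95% interval of -0.90 to 0.96.

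Among the hypoxia genes the lowest values were those of Ndrg1, Bnip3 and Adm. The Runx1 DN libraries of Ndrg1 and Bnip3, given above, were below every library of the other groups, and the log2 fold changes were -6.59 ± 1.49 and -4.50 ± 0.85 (edgeR adjusted p = 0.0069 and 0.0025). Without mock replicate 2 they were -4.37 and -3.40. The call of Ndrg1 ended without either Runx1 DN library (edgeR adjusted p = 0.0574 and 0.0545). Adm had 0.567 and 4.02 CPM in mock, 1.31 and 2.95 CPM in Satb1, 0.678 and 0.893 CPM in Runx1 WT, and 0.125 and 0.252 CPM in Runx1 DN. Its Runx1 DN libraries held only 3 and 7 counts, and the change of -3.58 ± 0.97 (edgeR adjusted p = 0.017) did not pass without mock replicate 2 (-1.54, edgeR adjusted p = 0.21), nor without replicate 2 of both mock and Satb1 (edgeR adjusted p = 0.126). Ero1l fell by 2.03 ± 0.42 and Egln1 by 1.33 ± 0.27 (edgeR adjusted p = 0.0045 and 0.004), or by 1.24 and 0.80 without mock replicate 2. Higd1a fell by 0.99 ± 0.21 (edgeR adjusted p = 0.0051). Egln3 (-2.18) and Bhlhe40 (-1.07) passed with all libraries (edgeR adjusted p = 0.027 and 0.028) but not without mock replicate 2 (edgeR adjusted p = 0.27 and 0.26). Without replicate 2 of both mock and Satb1 they passed at the same folds as in that fit (-0.93 and -0.43), with the spread of the Runx1 groups alone. Adm, Egln3 and Bhlhe40 did not pass without either Runx1 DN library (edgeR adjusted p = 0.0712 to 0.131).

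Against the direction of the class, Ddit4, P4ha2 and Hif1a were higher with Runx1 DN. Ddit4 rose by 1.38 ± 0.40 (edgeR adjusted p = 0.024), with both libraries above all others. Its call ended without mock replicate 1 (edgeR adjusted p = 0.0754) or without either Runx1 DN library (edgeR adjusted p = 0.091 and 0.0599), and without mock replicate 2 it stood at 2.28. P4ha2 had 0.945 and 0.894 CPM in mock, 0.721 and 0.794 CPM in Satb1, 1.5 and 1.25 CPM in Runx1 WT, and 2.04 and 2.38 CPM in Runx1 DN. It rose by 1.26 ± 0.25 (edgeR adjusted p = 0.0034) and was highest in Runx1 DN. Hif1a rose by 0.39 ± 0.08 (edgeR adjusted p = 0.0034). Vegfa was above all mock and Satb1 libraries in Runx1 DN, yet its change of 0.59 ± 0.37 did not pass (edgeR adjusted p = 0.25), while without mock replicate 2 it was 1.24 (edgeR adjusted p = 0.038).

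The third comparison asked whether added Satb1 changed the members against mock. It called 0 of 37 members in either direction with edgeR's quasi-likelihood test, against 3.09% of all genes lower and 3.28% higher, and DESeq2 called 0 as well. At an unadjusted p under 0.05 there were 4 members, with Pfkp, Ero1l and Bhlhe40 lower and Hk1 higher, against 9.12% of all genes lower and 9.54% higher. The median log2 fold change was -0.32, beside 0.00 over all genes, and 32 of 37 values were negative, against 6484 of 12699 genes tested. The sign of that median depended on single libraries, with 0.10 without mock replicate 2, 0.04 without Satb1 replicate 1 and -0.79 without Satb1 replicate 2. The intervals were wide where the replicates differed: for Ndrg1 the log2 fold change was -0.80 with a 95% interval of -3.29 to 1.70, and for Pgk1 it was -0.41 with -1.24 to 0.43. For Hif1a, whose libraries agreed closely, the interval was -0.17 to 0.17. Satb1 replicate 1 was below both mock libraries in 32 of 37 members, and Satb1 replicate 2 lay between the mock libraries in 27. Set against the mock library of the same number, Satb1 was lower in 32 members for replicate 1 and in 31 for replicate 2. The labels do not say what a number shares, and these orders were not counted over all genes. Without Satb1 replicate 2, 12 members were lower (32.4%, against 2.23% of all genes), and without replicate 2 of both mock and Satb1, 10 were lower (27.0% against 1.24%), so the absence of calls holds for the full set of libraries.

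The 2 Runx1 constructs were then compared with each other, a contrast whose own libraries agreed closely in these genes. Runx1 WT was lower than Runx1 DN in 9 of 37 members (24.3%) and higher in 4 (10.8%), against 33.5% and 34.8% of all genes tested. In this fit, calls were no more frequent among the members than in the background. The fit estimates 1 spread per gene from all 8 libraries, and with only the 2 groups compared the counts were 18 lower (48.6% against 32.4% of all genes) and 10 higher (27.0% against 34.05%), so lower calls were then more frequent among the members. The 6 glycolysis genes lower in Runx1 WT were Aldoc (-2.34), Pdk1 (-1.56 ± 0.26), Eno1 (-1.41 ± 0.29), Tpi1 (-0.89), Gapdh (-0.87 ± 0.20) and Ldha (-0.75), with edgeR adjusted p from 0.0004 to 0.029. The call of Ldha ended when any 1 of the 4 Runx1 libraries was left out (edgeR adjusted p = 0.0591 to 0.142), that of Tpi1 without Runx1 WT replicate 2 (edgeR adjusted p = 0.0763) and that of Aldoc without Runx1 DN replicate 2 (edgeR adjusted p = 0.0514). Gpi1, Pfkl and Pfkm lay at -0.05, -0.08 and -0.02, with a 95% interval of -0.70 to 0.61 for Gpi1. Pgk1 (-0.91) and Pgam1 (-0.56) were lower in both Runx1 WT libraries than in both Runx1 DN libraries but did not pass (edgeR adjusted p = 0.055 and 0.066).

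Of the 4 members higher in Runx1 WT, Bhlhe40 differed by 3.53 ± 0.34, Hk1 by 1.92 ± 0.14, Pfkfb4 by 0.91 and Slc2a3 by 0.60 ± 0.08 (edgeR adjusted p = 8.6e-06, 1.2e-06, 0.002 and 0.00012). Vegfa was lower in Runx1 WT by a log2 fold change of -2.40 ± 0.40, Ddit4 by -1.93 ± 0.41 and P4ha2 by -0.69 (edgeR adjusted p = 0.0004, 0.0019 and 0.026). P4ha2 did not pass without Runx1 WT replicate 2 or Runx1 DN replicate 2 (edgeR adjusted p = 0.141 and 0.148). Ndrg1 had more in Runx1 WT (2.76 ± 1.35) and Ankrd37 less (-2.80) without overlap of the libraries, but neither passed with all libraries in the fit (edgeR adjusted p = 0.095 and 0.061). With only the 2 groups compared, edgeR gave them adjusted p of 9.7e-08 and 2.7e-06. They are also the members whose replicates differed most in Satb1, and those libraries enter the shared estimate of spread.

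**Figure D4:**
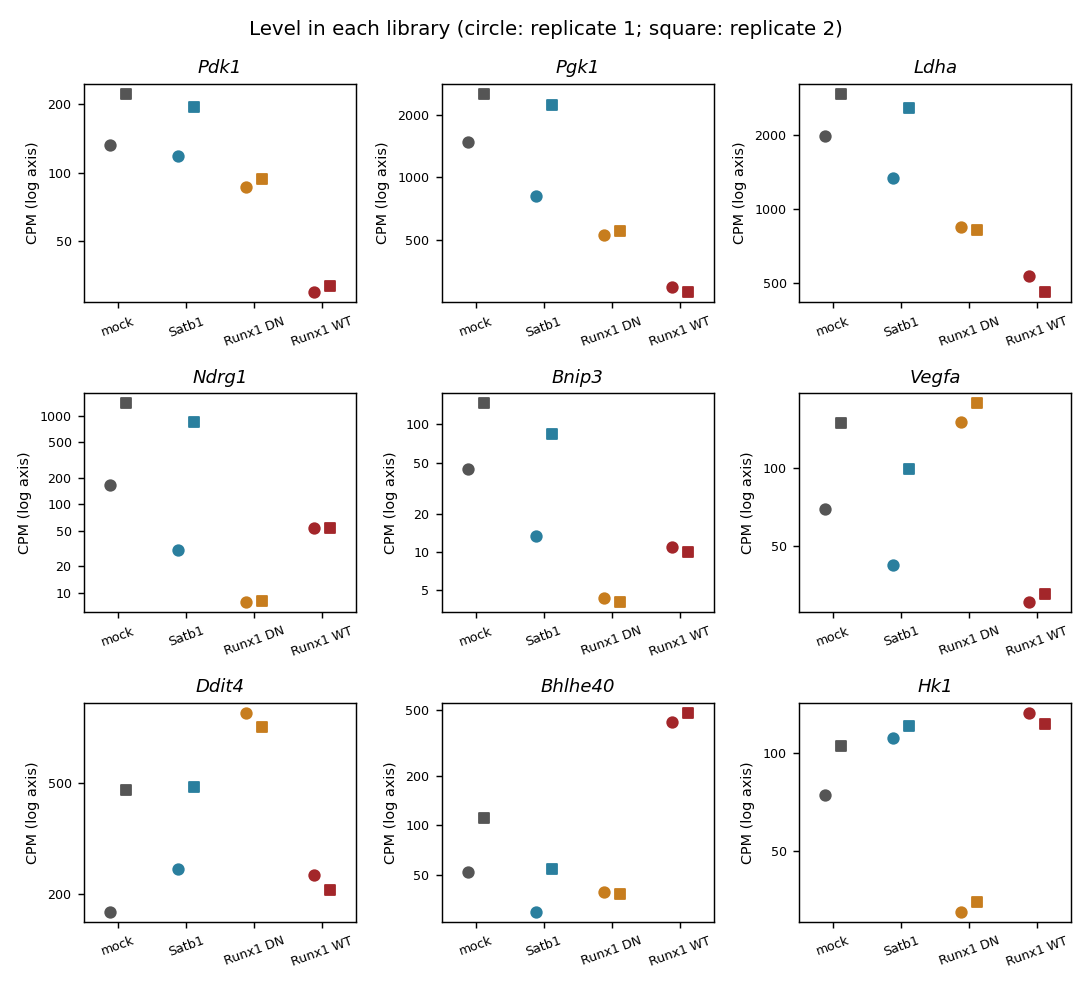
CPM on a log axis (vertical) in every library of the 4 groups (horizontal) for 9 members, with circles for replicate 1 and squares for replicate 2. Pdk1, Pgk1 and Ldha step down from mock and Satb1 through Runx1 DN to Runx1 WT, Ndrg1 and Bnip3 are lowest in Runx1 DN, and Bhlhe40 and Hk1 separate the 2 Runx1 groups in the opposite direction to Vegfa and Ddit4.

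Because mock and Satb1 each spanned a wide range, the members were also read against the lowest of those 4 libraries. Both Runx1 WT libraries were below all 4 in 23 of 37 members (34.5% of all genes tested), both Runx1 DN libraries in 22 (27.3%), and all 4 Runx1 libraries in 15 (16.6%). Of the 15, 13 were glycolysis genes and 2, Bnip3 and Higd1a, were hypoxia genes. With Runx1 WT the lowest mock or Satb1 library was at least 2-fold above the highest Runx1 WT library in 6 of 20 glycolysis genes and 0 of 17 hypoxia genes, against 5.87% of all genes tested. These were Pdk1 (3.75-fold), Pgk1 (2.72-fold), Eno1 (2.65-fold), Ldha (2.52-fold), and Aldoc and Tpi1 (2.31-fold each). With Runx1 DN the distance reached 2-fold in 1 glycolysis gene, Hk1 (2.13-fold), and in 3 hypoxia genes, Ndrg1 (3.83-fold), Bnip3 (3.07-fold) and Adm (2.25-fold), against 2.65% of all genes tested. The difference between the classes was not tested.

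**Figure D5:**
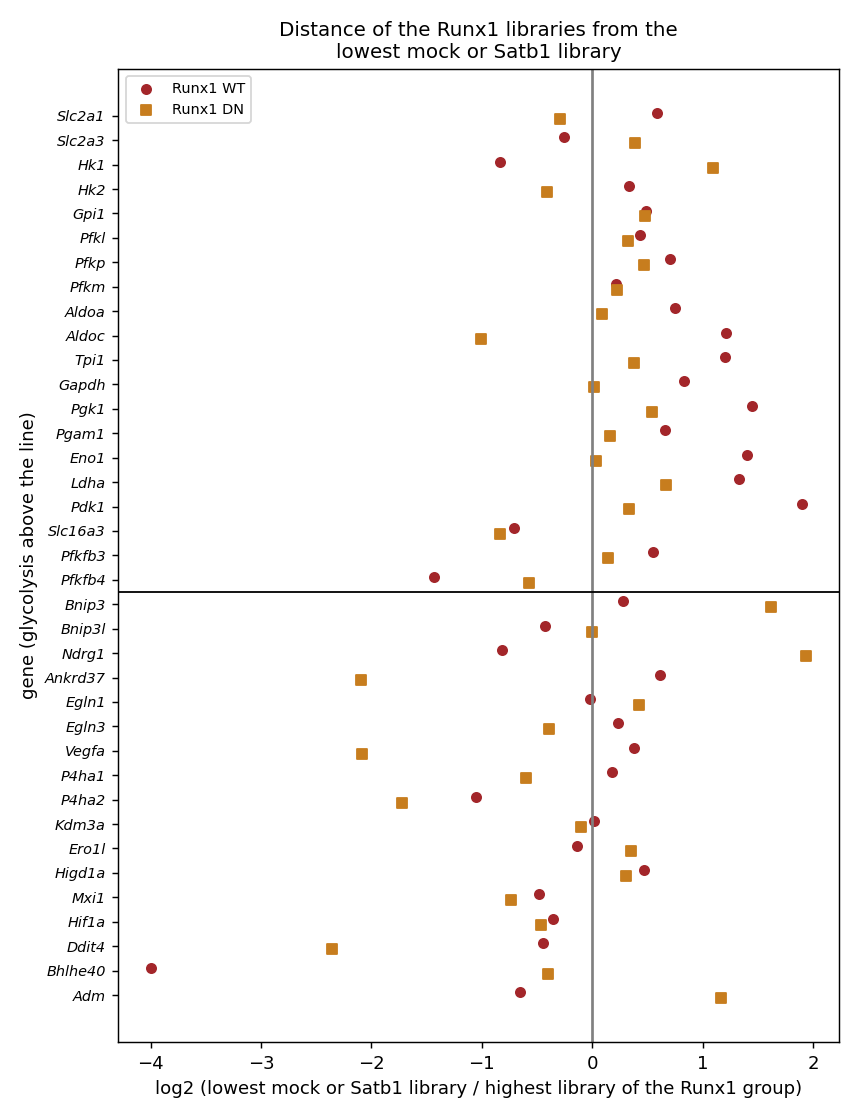
Log2 of the lowest mock or Satb1 library over the highest library of each Runx1 group (horizontal axis) for each tested member (vertical axis), so that points right of 0 do not overlap. Runx1 WT (circles) lies farthest right for Pdk1, Pgk1, Eno1 and Ldha, and Runx1 DN (squares) for Ndrg1, Bnip3 and Adm.

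Other genes of the same metabolism were read in the same fit, from lists of 8 to 35 genes. Pyruvate kinase Pkm, which completes the pathway and is named here after its values were seen, had 3259 and 4837 CPM in mock, 2408 and 4302 CPM in Satb1, 1273 and 1188 CPM in Runx1 WT, and 1953 and 1898 CPM in Runx1 DN. Its Runx1 WT libraries were the lowest and its Runx1 DN libraries came next, with log2 fold changes of -1.72 ± 0.25 for Runx1 WT and -1.07 ± 0.24 for Runx1 DN (edgeR adjusted p = 0.00013 and 0.007). Of 12 other isozymes and lactate transporters tested, 5 were lower (41.7%) and 7 higher (58.3%) with Runx1 WT, against 31.8% and 38.9% of all genes tested. With Runx1 DN 2 were lower (16.7%) and 6 higher (50%), against 16.9% and 17.5%. The lactate transporter Slc16a1 (MCT1) fell by 1.48 ± 0.08 with Runx1 WT, while the intracellular glucose transporter Slc2a8 rose by 2.64 ± 0.13 and the muscle mutase Pgam2 by 2.95 ± 0.13 (edgeR adjusted p = 1e-07, 9.6e-08 and 4.1e-08). Slc2a8 had 5.86 and 5.59 CPM in mock and 39.1 and 32.1 CPM in Runx1 WT.

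Neighbouring branches were counted in the same way. Of all genes tested, 31.8% were lower and 38.9% higher with Runx1 WT, and 16.9% and 17.5% with Runx1 DN. In the pentose phosphate pathway 5 of 8 genes were lower (62.5%) and 2 higher (25%) with Runx1 WT. The isomerase Rpia led them (-1.07 ± 0.09, edgeR adjusted p = 1.9e-06). With Runx1 DN 1 was lower and 1 higher (12.5% each). For the entry of pyruvate into mitochondria, 6 of 10 were lower (60%) and 2 higher (20%) with Runx1 WT. Among the lower were citrate synthase Cs (-0.82 ± 0.06) and the dehydrogenase Dld (-0.65 ± 0.06), with edgeR adjusted p = 1.3e-06 and 4.8e-06. The pyruvate entry counts with Runx1 DN were 3 lower (30%) and 2 higher (20%). For glycogen, 3 of 8 were lower (37.5%) and 4 higher (50%) with Runx1 WT. The lower included the phosphoglucomutase Pgm2 (-1.31 ± 0.30) and the phosphorylase Pygb (-0.39 ± 0.09), with edgeR adjusted p = 0.0027 and 0.0031. The glycogen counts with Runx1 DN were 5 lower (62.5%) and 1 higher (12.5%). Replicates 1 and 2 of mock and Satb1 were within 1.5-fold of each other in every pentose phosphate and pyruvate entry gene tested. Of the 8 glycogen genes, 3 in mock and 2 in Satb1 were at least 1.5-fold higher in replicate 2. Pgm2 was among them, 1.91-fold higher in mock and 1.82-fold higher in Satb1. Over all genes, replicate 2 was at least 1.5-fold higher in 5.43% in mock and 4.81% in Satb1, and lower in 2.82% and 3.11%. In the glucose sensing list 2 of 8 were lower and 2 higher with Runx1 WT (25% each), no more than in the background. Txnip, an inhibitor of glucose uptake, rose by 2.83 ± 0.22 (edgeR adjusted p = 1.3e-06). Txnip had 91.8 and 52.7 CPM in mock and 451 and 576 CPM in Runx1 WT. With Runx1 DN 1 gene of the glucose sensing list was lower (12.5%) and 3 were higher (37.5%).

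Genes of oxygen sensing and of the turnover of HIF-1 alpha, together with further HIF subunits, were read as a list of their own. Of 10 such genes tested, 3 were lower (30%) and 5 higher (50%) with Runx1 WT, against 31.8% and 38.9% of all genes tested. With Runx1 DN 1 was lower and 1 higher (10% each), against 16.9% and 17.5%. The ubiquitin-conjugating enzyme Ube2d1 rose by 1.04 ± 0.07, the E3 ligase Siah1a by 0.64 ± 0.10 and Hif1an, the asparaginyl hydroxylase FIH, by 0.44 ± 0.07 with Runx1 WT (edgeR adjusted p = 6.8e-07, 0.00028 and 0.00023). Of 28 further hypoxia-inducible genes tested, 12 were lower (42.9%) and 8 higher (28.6%) with Runx1 WT, against 31.8% and 38.9% of all genes tested. With Runx1 DN 11 were lower (39.3%) and 2 higher (7.14%), against 16.9% and 17.5%. The transferrin receptor Tfrc fell by 2.07 ± 0.11 and carbonic anhydrase Car12 by 2.81 ± 0.18 with Runx1 WT, while the nuclear receptor Rora rose by 1.97 ± 0.13 (edgeR adjusted p = 1.1e-07, 5.2e-07 and 4.9e-07). The median over these 28 was -0.21 with Runx1 WT and -0.44 with Runx1 DN, nearer to the median of all genes than those of the 37 members. In this list replicate 2 was at least 1.5-fold above replicate 1 in 13 genes of mock and 12 of Satb1, against 0 in Runx1 WT and 1 in Runx1 DN. The shares of all genes tested were 5.43%, 4.81%, 3.93% and 4.42% in that order.

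The authors' deposited table gives its own edgeR calls against mock. There, in the authors' deposited values, 26 members were lower and 3 higher with Runx1 WT, of which 25 and 3 were called the same way here. Hif1a, called higher with Runx1 WT here, stood at 0.14 there and was not called (the authors' edgeR adjusted p = 0.438). With Runx1 DN the authors' deposited table holds 27 lower and 3 higher, of which 23 and 3 were also called here, and with Satb1 it has 0 in either direction. No member had opposite calls. The share of all genes called in the authors' table was not counted, so these counts are not read as an excess.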

How the data were processed

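The deposited values are whole-number counts per gene, made by the authors with HOMER over exons of the mouse build mm9 and unadjusted for length or depth, per the file headers. The names edgeR 3.6.8, HOMER, RSEM 1.2.25, STAR 2.4.0 and Trimmomatic 033 are listed, with no role, in the submitters' processing notes. The deposited table also holds the authors' log2 fold change, p-value and adjusted p-value for each construct against mock. The kit does not mark strand, so overlapping genes cannot be separated.

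The function filterByExpr, with a minimum count of 10 and a minimum total of 15, kept 12699 of 24505 genes. All 8 libraries, scaled by TMM, entered 1 model of group means in edgeR 4.0.16 under R 4.3.3, with 4 residual degrees of freedom, and contrasts were tested by quasi-likelihood. Tests were two-sided, adjusted by Benjamini-Hochberg over all genes tested, with a threshold of 0.05. The SE of a fold change was derived from the F statistic, and intervals are at the 95% level. RPKM values divide the CPM by the length of the transcript given in the table. The median biological coefficient of variation was 0.202 for the members and 0.0768 for all genes tested. Within groups, replicate counts differed by 10.5 to 22.8 times the chi-square per degree of freedom of counting noise, so no pair was counted as 1 sample. A count of 3 corresponds to 0.0953 to 0.125 CPM, which covers counting error only.

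Promoter sequences are RefSeq's, on GRCm38.p6, and were matched by symbol or by transcript. Coordinates of genes are mm9, as deposited. Members and lists were chosen with earlier results of these data known. Values per library are given for the 6 members with the smallest adjusted p and the 3 with the largest called fold change in each comparison, for members moving against their class, and for 12 members always named. From each other list, up to 3 genes with the smallest adjusted p for Runx1 WT are named. Alternatives were RLE, library-size and quantile scaling, DESeq2 1.42.0, limma 3.58.1, other filters, robust empirical Bayes, a replicate block, each library left out, and only the groups compared.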

Additional observations from a re-analysis of the deposited data

How the results depend on the processing

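With 2 libraries per group, the counts of called members depended on the spread assumed and on single libraries. For Runx1 WT the 25 lower members were 15 with robust empirical Bayes and 19 to 29 with 1 library left out, and the 4 higher were 3 to 4. For Runx1 DN the 23 lower members were 6 with robust empirical Bayes and 11 to 28 with 1 library left out, the fewest without mock replicate 2, and the 3 higher were 2 to 4. For Satb1 the 0 lower members were 0 to 12 with 1 library left out, 12 without Satb1 replicate 2, 2 without mock replicate 1, and 10 without mock and Satb1 replicate 2 together, while the 0 higher were 0 to 1. For Runx1 WT against Runx1 DN the 9 lower and 4 higher members were 18 and 10 with only the 2 groups compared, and also 18 and 10 without mock and Satb1 replicate 2 together. With 1 library left out they were 6 to 14 and 4 to 7. With the replicate block there were 14 lower (37.8%, against 35.4% of all genes) and 6 higher (16.2% against 36.5%) in that comparison. With the same block, 1 was lower for Satb1 (2.7%), a smaller share than among all genes. For Runx1 WT it gave 27 lower (72.97% against 33.4%) and 4 higher (10.8% against 40.5%). For Runx1 DN it gave 25 lower (67.6% against 20.7%) and 4 higher (10.8% against 20.9%). Counts given in this paragraph without a share of all genes are not read as an excess. The labels do not say what a replicate number shares. The replicate 2 minus replicate 1 difference in log2 CPM was therefore correlated between pairs of groups. Over all genes tested these correlations were 0.0682 to 0.392. Over the 37 members they were 0.856 for mock and Satb1, 0.652 for the Runx1 groups and -0.0351 to 0.217 for the others. Ddit4 reversed with Runx1 WT, to 0.35, and passed without mock and Satb1 replicate 2 together, with the spread of the Runx1 groups alone. Of the other values of named genes under alternatives, 1622 kept their side of the threshold, 92 passed newly and 81 no longer passed. Direction was compared only where the main fit or the alternative passed, so values that passed in neither may have changed sign. The cause was not tested. Where an arm is left with 1 library, that library is assumed to vary like the other groups. The median of all genes for Runx1 WT was 0.10, 0.22 with library size alone and -0.10 with quantile normalization, and 55.1%, 62.2% and 44.6% of its calls were higher. The member median for Runx1 WT without mock replicate 2 was -0.91, and for Runx1 DN it was -0.54.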
